A study of Homo sapiens with 2 samples.

Results

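Small structural RNAs have left many copies in the human genome, and 3558 gene intervals that stand for such copies were examined here for the histone mark H3K9me3. They are all intervals on chromosomes 1 to 22 whose symbol occurs in 50 or more rows of the deposited gene table, without the snoRNA arrays SNORD115 and SNORD116, and they make up 8.84% of the 40237 intervals of the table. The rule yields 11 RNA families: U6 with 1224 intervals, Y_RNA with 767, snoU13 with 449, 5S_rRNA with 346, 7SK with 277, U7 with 124, U1 with 106, U4 with 79, U3 with 75, U2 with 62 and SNORD112 with 49. A further 199 rows with these symbols lie on X or Y and were left out. The smallest family inside the rule, SNORD112, has 51 rows in the table and a median corrected score of 40.9. The largest outside it, U6atac, has 37 rows and a median of 40.6.

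The data come from KBM7, a near-haploid cell line from a chronic myeloid leukemia, grown without any treatment named in the labels. Crosslinked and sheared chromatin was precipitated with an antibody against H3K9me3 in 1 library and with IgG in 1 control library, and only the H3K9me3 library was analysed here. There is thus no replicate, no control beside any value and no test between conditions, and intervals in brackets cover counting error only. Reads were not corrected for copy number, and KBM7 cells are known to be disomic for chromosome 8 and for a segment of chromosome 15.

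H3K9me3 marks constitutive heterochromatin and silences repeats, and copies of small RNAs that spread by reverse transcription are themselves a kind of repeat. U1, U2, U4 and U6 are RNAs of the spliceosome, U7 trims the ends of histone mRNAs, U3 and U13 act in the maturation of ribosomal RNA, and 5S rRNA is a part of the large ribosomal subunit. 7SK RNA holds the elongation factor P-TEFb inactive, Y RNAs bind the Ro60 protein, and SNORD112 is a C/D box snoRNA of an imprinted cluster on chromosome 14. U6, 7SK, Y and 5S RNAs are made by RNA polymerase III. Most intervals under a shared symbol such as U6 or 7SK are copies predicted by sequence likeness, and whether any of them is transcribed cannot be read from these data.

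The intervals are short, from 35 to 375 bp, and held few reads, 14 in the median interval (25th to 75th percentile 7 to 25). A read that only touches the end of such an interval is counted in it, so reads per kb of length overstate short intervals. The 2550 short intervals of other symbols that lie inside a longer gene interval gave an overhang of 270 bp, the length that has to be added for their median to equal that of the surrounding gene. All levels below are corrected scores, which are reads per kb of length plus overhang. The 5333 other autosomal intervals of up to 0.5 kb serve as the comparison and are called other short intervals. They hold microRNAs, other snoRNAs and gene segments among others. SNORD115 and SNORD116, left out of the members by the rule, stayed in this set. So did copies of the same RNAs that carry numbered symbols.

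Taken as a whole, the small RNA copies carried a little less H3K9me3 than other short intervals and lay in peaks about as often as placement at random would give. Their median corrected score was 37.1 (25th to 75th percentile 19.01 to 63.4), against 43.3 (21.5 to 75.6) for other short intervals. A peak of the deposited list overlapped 248 of them by 1 bp or more, which is 6.97% (95% exact binomial interval 6.16 to 7.86). The same call was made in 10.2% of other short intervals and in 36.6% of all other autosomal intervals, most of which are far longer. If each copy were placed uniformly on its own chromosome, 6.87% would touch a peak, so the observed share was 1.02 times the expected one. For other short intervals it was 1.44 times, 10.2% against an expected 7.08%. By chromosome, their ratio ran from 0.461 on chromosome 10 to 3.04 on chromosomes 14 and 15. Those last chromosomes held 77 and 75 of the 545 other short intervals in peaks. When placement was limited to 1 Mb on either side of each copy the ratio for the small RNA copies was 0.922.

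The families differed from each other, and 7SK copies stood at the top by level. The median corrected score was 72.0 for 7SK (25th to 75th percentile 47.4 to 102), 54.0 for U3, 53.0 for U1 and 51.1 for 5S_rRNA. These 4 families lay above the median of other short intervals. U2 at 41.8 and SNORD112 at 40.9 were close to it, and U4 at 36.5, snoU13 at 35.8, U6 at 32.2, U7 at 30.1 and Y_RNA at 29.0 lay below. The highest family median was 2.48 times the lowest. The families overlapped widely, with 7SK copies from 29.0 at the 10th percentile to 143 at the 90th. The 90th percentile of other short intervals, 115, was reached by 53 of 277 7SK copies (19.1%), 46 of 346 5S_rRNA copies (13.3%) and 44 of 1224 U6 copies (3.59%). Neighbours in this order were close: U3, U1 and 5S_rRNA could not be told apart in view of their quartiles, nor could U7 and Y_RNA. In plain reads per kb, without the overhang, the order was another one, with SNORD112 highest at 197, 5S_rRNA next at 183 and 7SK at 141. Other short intervals had 147 by that measure. U3 at 144, 7SK and U1 at 140.7 then lay below them, and U7 at 160 above. The correction is larger for shorter intervals, and SNORD112 intervals are among the shortest.

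**Figure D1:**
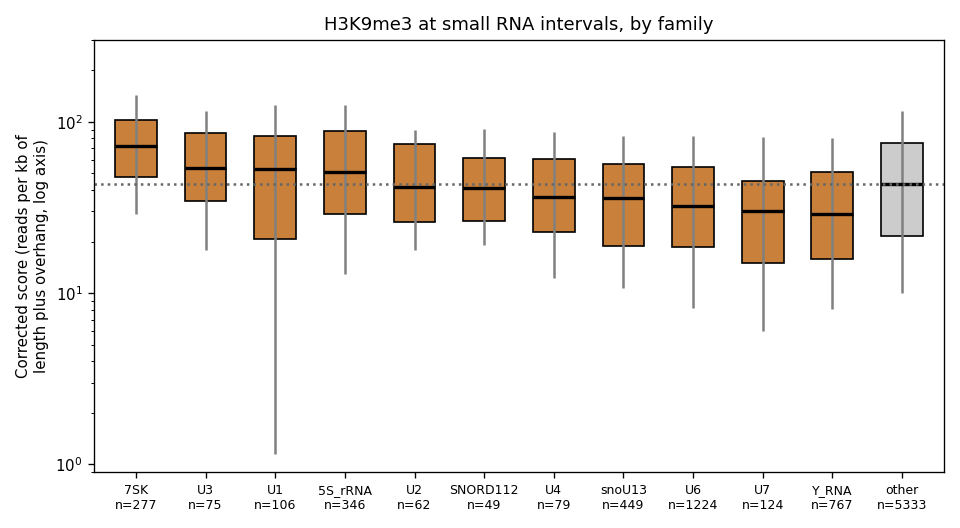
Corrected H3K9me3 score of each small RNA family and of other short intervals, in reads per kb of length plus overhang on a log axis. Bars span the 25th to 75th percentile with the median as a line, thin lines run from the 10th to the 90th percentile, and the dotted line is the median of other short intervals, 43.3, which 7SK at 72.0 exceeds and Y_RNA at 29.0 does not reach.

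Peak overlap, which comes from the same library and so is not independent of the scores, split the families in much the same way. Of the 277 7SK copies 50 lay in a peak, 18.1% (13.7 to 23.1), which is 2.44 times the 7.39% expected from uniform placement. U1 followed with 13 of 106, or 12.3% (6.69 to 20.1) and 1.83 times the expected share, U3 with 10 of 75, or 13.3% (6.58 to 23.2) and 1.78 times, and 5S_rRNA with 41 of 346, or 11.8% (8.64 to 15.7) and 1.56 times. Only for 7SK and 5S_rRNA did the binomial interval lie wholly above the expected share, and for 5S_rRNA it no longer did without an array on chromosome 16, 10.4% (7.29 to 14.2) against 7.67%. U6, the largest family, was in peaks less often than uniform placement gives, with 59 of 1224 copies, 4.82% (3.69 to 6.17) against an expected 6.81%. Y_RNA had 37 of 767, 4.82% (3.42 to 6.59) against 6.64%, but the direction turned over its copies in no other gene interval, where the share was 1.12 times the expected one. For snoU13, 22 of 449 copies lay in peaks, 4.90% (3.10 to 7.32) against 6.62%, where the interval takes in the expected share, and the ratio turned to 1.01 over copies in no other gene interval. Intervals of U7 with 6, U4 with 3, U2 with 4 and SNORD112 with 3 copies in peaks were too wide to place these families above or below their expected shares. The share of U3 rested on narrow peaks: with peaks of 1500 bp or more only, it was 0.827 times the expected share.

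**Figure D2:**
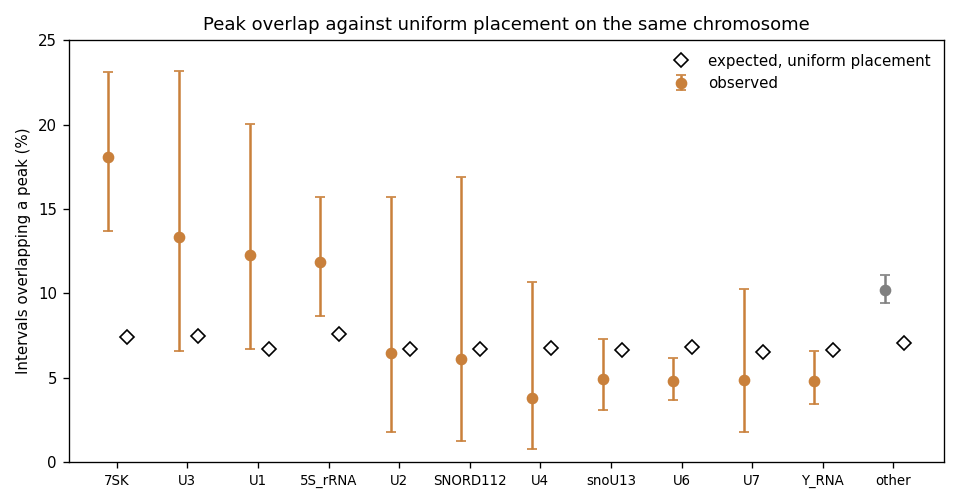
Share of intervals that overlap an H3K9me3 peak by 1 bp or more, by family, in percent. Filled points are observed shares with 95% exact binomial intervals, and open diamonds are the shares expected if each interval were placed uniformly on its own chromosome. The 7SK share of 18.1% lies well above its expected 7.39%, and the U6 share of 4.82% below its expected 6.81%.

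Each family was also set beside other short intervals of like length. 7SK copies had 18.1% in peaks and a median of 72.0, whereas 681 other intervals of 223 to 342 bp had 8.08% and a median of 49.98. U6 had 4.82% and 32.2, against 10.8% and 41.3 for 815 other intervals of 91 to 109 bp. Medians of Y_RNA (29.0, against 42.1), snoU13 (35.8, against 42.2), U7 (30.1, against 45.5) and SNORD112 (40.9, against 46.3) also lay below those of their like-length sets. Those of U1 (53.0, against 32.2), U3 (54.0, against 37.4), 5S_rRNA (51.1, against 39.97) and U2 (41.8, against 37.3) lay above. U4 at 36.5 was level with its set at 36.9, although it lay below the median of all other short intervals. Within families, full-length and shorter 7SK copies were alike: 162 copies of 0.301 kb or more had a median of 74.7 and 19.8% in peaks, and the 115 shorter ones had 70.4 and 15.7%. U3 copies differed more, with 64.4 for 47 full-length copies and 43.1 for 28 shorter ones, although their shares in peaks were 12.8% and 14.3%.

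Peaks over 7SK copies were narrow and tended to be centred on the copy. The median peak over a 7SK copy was 1350 bp wide, against 1950 bp over all small RNA copies in peaks and 2850 bp over other short intervals in peaks. Narrow peaks were not particular to 7SK: the median was 1050 bp over 10 U3 copies and 1050 bp over 3 SNORD112 copies. In 35 of 50 cases the 7SK copy lay in the inner 50% of the positions at which it could touch its peak, where uniform placement gives 50%. For the 25 peaks under 1500 bp this was so in 19. U6 copies lay toward the edges, with 19 of 59 in the inner positions, and Y_RNA and 5S_rRNA had 16 of 37 and 20 of 41. Peaks under 1500 bp held 25 7SK copies where uniform placement gives 7.94, and peaks of 1500 bp or more held 25 where it gives 12.5. Outside peaks 7SK copies still had a median of 60.9 reads per kb of length plus overhang, against 38.4 for other short intervals outside peaks. The latter set is not matched in length: all other short intervals have a median of 0.096 kb, and all 7SK copies 0.304 kb.

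Copies inside genes were compared with the gene interval around them. Of all small RNA copies 1973 (55.5%) lay inside a gene interval of 10 kb or more, and in 1971 cases the gene had reads. The median ratio of copy to gene was 0.903 (25th to 75th percentile 0.541 to 1.30), where other short intervals have 1.00 by construction of the overhang. 7SK copies had a ratio of 1.48 (1.06 to 1.73, 139 copies), and 26 of them, 18.7%, reached at least 2 times the score of their gene, as did 9.65% of other short intervals. The ratio was 1.11 for 28 U3 copies, 1.01 for 186 5S_rRNA copies, 0.828 for 670 U6 copies, 0.838 for 454 Y_RNA copies and 0.681 for 80 U7 copies. U1, high by level, had a ratio of only 0.828 over 43 copies. It was 1.01 over the 35 of them outside 143670468 to 149671868 of chromosome 1. A score of at most 0.5 times that of the gene was found in 37.5% of U7, 24.3% of U6, 24.9% of Y_RNA and 3.60% of 7SK copies, against 17.7% of other short intervals. The other short intervals of 7SK length had a ratio of 1.17 and reached 2 times their gene in 14.3% of cases. With an overhang of 0.1 kb the ratios were 2.09 for 7SK and 1.79 for other short intervals, so that 7SK stood at 1.17 times their level.

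**Figure D3:**
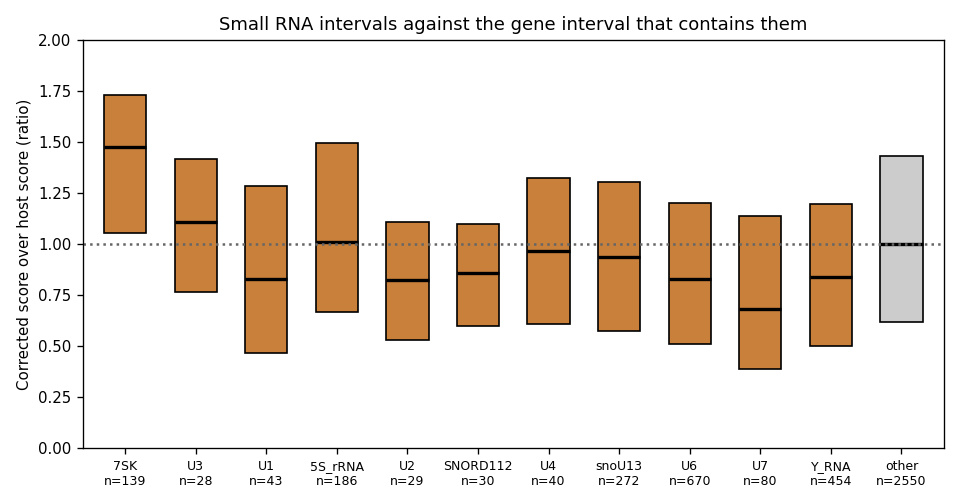
Corrected score of each copy divided by the score of the shortest gene interval of 10 kb or more that contains it, by family. Bars span the 25th to 75th percentile and lines mark medians. The median of 7SK copies, 1.48, lies above the level of other short intervals, 1.00, and that of U7 copies, 0.681, below it.

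Copies also differed by place. Those in no gene interval of 10 kb or more had a median of 42.6 and a peak in 9.65% of 1585 cases, against 32.2 and 4.41% for the 1948 copies inside genes other than zinc finger genes. The expected shares were 6.93% and 6.76%. Other short intervals went the same way, with 11.7% in peaks outside such genes and 8.06% inside them. For 7SK these shares were 24.6% of 138 (expected share 7.59%) and 10.9% of 137 (6.26 to 17.4, expected share 7.18%). For 5S_rRNA they were 16.5% of 158 (expected share 7.22%) and 7.57% of 185 (expected share 7.72%). Inside genes the 7SK interval thus takes in the expected share, and 5S_rRNA copies lay close to theirs. The 25 copies inside zinc finger genes, a known target of the mark, had a median of 87.6. In peaks lay 9 of 25 (expected share 11.7%). Other short intervals in such genes had a median of 138 and 17 of 30 in peaks (56.7%, expected share 12.5%). With placement limited to 1 Mb on either side the expected shares were 23.2% and 35.2%. The level of the copies in zinc finger genes rested on chromosome 19: the 16 elsewhere had 37.0, with 4 in peaks (expected share 7.80%). Orientation to the gene went with a small difference, with medians of 32.1 for 1011 copies on the strand of the gene and 33.4 for 962 on the opposite one.

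By chromosome, copies on chromosome 8 had the highest median, 86.5 over 170 copies, close to the 88.4 of other short intervals there. They lay in peaks in 11.2% of cases (6.86 to 16.9), an interval that takes in the 15.9% expected on that chromosome. Other short intervals there reached 16.8%. On chromosome 19, rich in zinc finger clusters, 19 of 67 copies lay in peaks, 28.4% (18.0 to 40.7). This was 1.52 times the expected 18.6%, which the interval takes in. Other short intervals there had 54 of 184 in peaks (29.3%), 1.57 times their expected share. The 35 copies at 60 to 90 Mb of chromosome 15 had a median of 81.8, against 55.2 for 68 other short intervals. Of those 68 intervals 12 held no reads, as did 0 of the 35 copies. Mean scores were close, 77.8 for the copies and 77.6 for the other short intervals. So were the shares in peaks, 17.1% and 16.2%. On the other autosomes the median was 34.997 over 3286 copies, with the lowest chromosome, 22, at 19.4. Setting chromosomes 8 and 19 and that part of chromosome 15 aside left 7SK at 16.7% in peaks against an expected 6.72%, and U6 at 3.56% against 6.04%. Neighbouring copies were alike: without the array on chromosome 16 described below, pairs of copies 1 to 10 kb apart differed by a median factor of 1.67 (99 pairs) and pairs 1000 to 10000 kb apart by 2.16 (41234 pairs).

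The highest copies were led by 5S_rRNA. Coordinates are those of the deposited table, and the submitters' processing notes name hg19. The 5S_rRNA copy at 17605627 to 17605739 of chromosome 8, inside MTUS1, held 187 reads, a corrected score of 488 (420 to 563), 4.25 times that of its gene. No peak lay closer to it than 14012 bp. Next came a pair of 5S_rRNA copies near the end of the long arm of chromosome 4, at 190936293 to 190936410 and 190938851 to 190938969. They held 139 and 146 reads and scored 358 (301 to 423) and 375 (317 to 441), and both lay in the same peak of 7650 bp. The highest U4 copy, at 23457539 to 23457651 of chromosome 8, scored 347 (291 to 411) in a peak of 19800 bp. The highest U1 copy, at 144534038 to 144534199 of chromosome 1, scored 340.1 (287 to 400) outside peaks. The remaining 5S_rRNA copies of the 10 highest lay at 25994396 to 25994514 of chromosome 8, at 66458144 to 66458262 of chromosome 9 and at 41207258 to 41207364 of chromosome 6. They scored 301 (249 to 360.2) outside peaks, 277 (228 to 335) in a peak of 4800 bp and 270.4 (220.5 to 328) in a peak of 4950 bp. Of the 10 highest copies 6 were 5S_rRNA, and 4 of the 10 lay on chromosome 8.

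Among 7SK, 2 copies ranked within the 10 highest. The copy at 145044651 to 145044900 of chromosome 1, inside PDE4DIP, held 165 reads, a score of 317 (271 to 369) in a peak of 9600 bp. The copy at 124600999 to 124601286 of chromosome 8 held 177 reads, a score of 317 (272 to 367), and was 6199 bp from the nearest peak.

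In the other families the highest copy was in a peak for 5 of 7. The highest snoU13 copy, at 103780550 to 103780653 of chromosome 4 inside UBE2D3, which encodes a ubiquitin-conjugating enzyme, scored 246 (198 to 301) in a peak of 2700 bp, 7.72 times its gene. The highest Y_RNA copy, at 12199060 to 12199161 of chromosome 19, scored 220.3 (175 to 273) in a peak of 2250 bp. For U2, the copy at 39624208 to 39624398 of chromosome 17 scored 215 (174 to 261). The highest U3 copy lay at 149075312 to 149075522 of chromosome 5 with 208 (169 to 253), and that of SNORD112 at 39045515 to 39045586 of chromosome 20 with 146 (108 to 193). All of these were in peaks. The highest U6 copy, at 75038820 to 75038926 of chromosome 10 inside TTC18, with 268 (218 to 325), and the highest U7 copy, at 98786206 to 98786261 of chromosome 8, with 239 (189 to 298), were not. The widest peak over any copy, 25500 bp at 80956201 to 80981700 of chromosome 15, covered part of a U6 copy that scored 98.1 (69.1 to 135). The next widest held the U7 copy at 144728080 to 144728139 of chromosome 8, which scored 218 (171 to 275). Peaks of 19650 and 19500 bp held the U6 copies at 10333733 to 10333839 of chromosome 8, with 135 (101 to 178), and at 75320610 to 75320696 of chromosome 16, with 179 (138 to 229).

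An array of 18 5S_rRNA copies on chromosome 16, at 34968764 to 34989656, stood above the rest of its family. All copies were on the plus strand and 100 to 137 bp long. They held 22 to 63 reads, with a median score of 103 (lowest 54.2, highest 155), and every one lay above the median of the family, 51.1. Peaks of the deposited list overlapped 7 of the 18, which scored 88.9 to 124, and the 3 highest copies, from 143 to 155, lay in none. Gaps between copies were shorter than the overhang in 8 of 17 cases, so some neighbours share reads. Without the array the family median was 48.9, and the share in peaks was 1.35 times the expected one. The array was singled out after its values were seen.

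**Figure D4:**
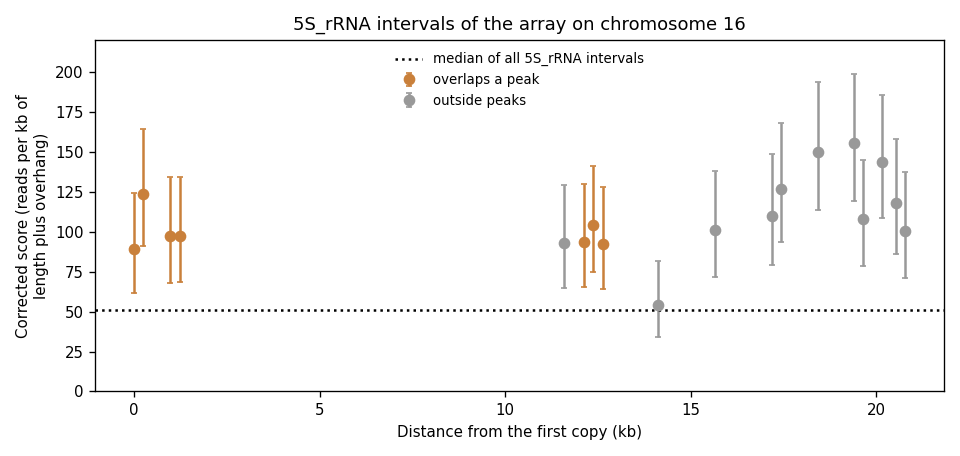
Corrected score of the 18 5S_rRNA copies of the array on chromosome 16 by distance from the first copy in kb, with 95% Poisson intervals. The dotted line is the median of all 5S_rRNA intervals, 51.1. The 7 copies in peaks, from 88.9 to 124, lie within the range of those outside peaks, from 54.2 to 155.

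On chromosome 14, 8 of the 49 SNORD112 intervals fall in the imprinted snoRNA and microRNA cluster, from 101315645 to 101464061. They held 7 to 23 reads and had a median score of 54.0, with 0 of 8 in peaks. The 41 SNORD112 intervals elsewhere had 40.9, with 3 in peaks. From pooled reads the scores were 49.2 (41.2 to 58.3) in the cluster and 48.0 (44.5 to 51.8) elsewhere, intervals that overlap.

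The annotated genes of the same RNAs had almost no reads, with no 5S_rRNA or SNORD112 gene among those looked for. Of 20 such symbols looked for, 16 were in the table, and 15 of them lay on the chromosome that the RefSeq table, of a later assembly, gives. The exception, RNU6-2, scored 29.2 on chromosome 10 and was set aside. The 15 genes held 0 to 15 reads, 54 in all, with a median corrected score of 5.37, and none overlapped a peak. In 14 of them the score was below the median of the copies of the same RNA, and in 13 it lay in the lowest 25% of those copies. Of the 277 7SK copies all but 3 scored above RN7SK, the functional gene on chromosome 6, which held 3 reads and scored 4.99 (1.03 to 14.6). RNY1, RNY3, RNY4 and RNY5 held 4, 2, 1 and 2 reads, with scores of 10.4, 5.37, 2.73 and 5.73. SNORD3A, a U3 gene, held 1 read, below all 75 U3 copies. RNU4-1 and RNU4-2 held 3 and 8 reads, RNU7-1 held 3, and RNU6-1 held 8, a score of 21.2 (9.16 to 41.8), with 30.7% of U6 copies at or below it. The U1 genes RNU1-1 and RNU1-2 held 2 reads each and RNU1-3 and RNU1-4 held 0, which allows a score of up to 6.91. The exception was snoU13, whose copies had a median of 35.8, against 40.1 (22.4 to 66.1) for the gene SNORD13 on chromosome 8 with 15 reads.

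**Figure D5:**
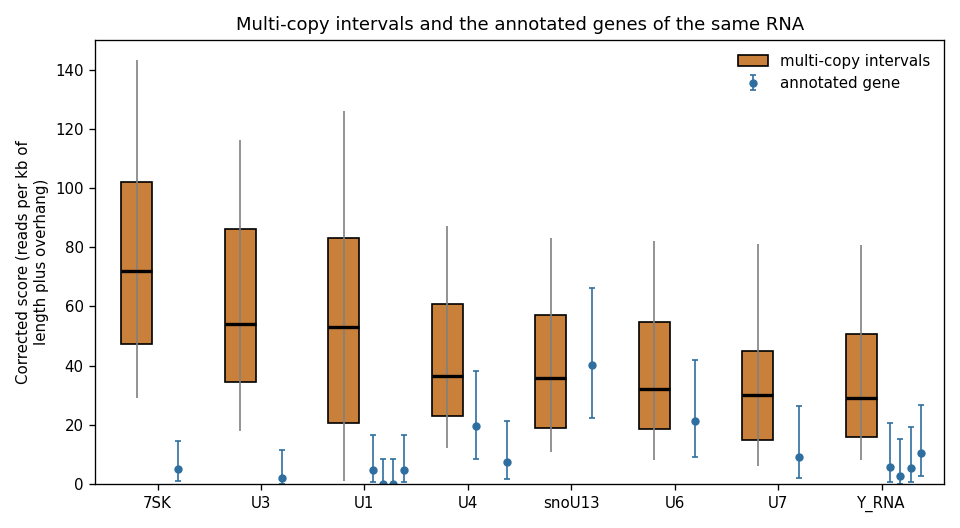
Corrected score of multi-copy intervals (bars from the 25th to 75th percentile, line at the median, thin lines from the 10th to the 90th percentile) and of the annotated genes of the same RNA (points with 95% Poisson intervals). The 7SK copies had a median of 72.0, against 4.99 for RN7SK, and only SNORD13, at 40.1, lay above the median of its copies.

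Genes of other small RNAs from the same list were also low, apart from vault RNA genes. Of 17 intervals of 16 symbols, 15 scored below the median of other short intervals. RMRP and RPPH1, the RNA parts of the nucleases MRP and P, scored 11.2 for RMRP and 6.61 and 4.97 for the 2 intervals of RPPH1, and TERC, the RNA of telomerase, scored 11.3. The vault RNA genes on chromosome 5 were spread out: VTRNA1-1 scored 18.96 (7.62 to 39.1), VTRNA1-2 66.8 (42.8 to 99.4) and VTRNA1-3 136 (101 to 180), all outside peaks.

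Some copies of the same RNAs carry numbered symbols and so fall outside the rule, and such copies were found for 8 of the 11 families. None were found for U3 and snoU13, and none were looked for in SNORD112. All 5S_rRNA members lie on 18 chromosomes, whereas 150 5S copies of chromosomes 1, 2, 3 and 13 have RN5S symbols. The 5S_rRNA members had a median of 51.1 and a peak at 1.56 times the expected share. The numbered 5S copies had 45.4 and 1.21 times (6.67%). Of these 150 numbered copies 20 held 0 reads (13.3%), against 3.18% of the members. On the other autosomes, grouped as in the comparison by chromosome, where all numbered 5S copies lie, the 302 members had 48.7 and 1.77 times. Without the array the 284 members left there had 45.2 and 1.49 times. With placement limited to 1 Mb on either side, the ratios were 1.39 for all 5S_rRNA members and 0.819 for the numbered copies. The 7SK members had a median of 72.0, against 82.7 for the 10 numbered 7SK copies, all on chromosome 13, of which 1 lay in a peak. U6 members had 32.2, against 34.7 for 38 numbered copies, U7 members 30.1, against 30.2 for 69, and Y_RNA members 29.0, against 37.5 for 57. The widest gaps were in U1 and U2. U1 members had 53.0, against 33.8 for 20 numbered copies, of which 7 held 0 reads. U2 members had 41.8, against 85.5 for 6, and U4 members 36.5, against 47.0 for 6.

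Copies without reads were as frequent as among other short intervals, and intervals without reads were clustered in both sets. Among other short intervals, 42 of the 147 without reads lay on chromosome 1 and 40 on chromosome 15. Of all members 100 held 0 reads, 2.81% (2.29 to 3.41), against 2.76% of other short intervals, and 0 reads allow a corrected score of 5.25 to 9.37, depending on length. U1 had the highest share, 10.4% (5.30 to 17.8), and U4, U3, U2 and SNORD112 had none. All 11 U1 copies without reads lay on chromosome 1 between 143687359 and 149606079, a span with 23 U1 copies. The 25 U1 copies from 143670468 to 149671868 had a median of 4 reads, and the highest held 147. Of the others, 2 on the short arm of chromosome 1 held 39 and 50 reads, and the 79 elsewhere had a median of 24 reads and a score of 55.5. Y_RNA had 13 of its 25 copies without reads on chromosome 7 between 66762640 and 76671065, snoU13 had 9 of 16 on chromosome 16 between 21468647 and 30290672, and 5S_rRNA had 7 of 11 on chromosome 10 between 46351755 and 51255495. Mappability was not used here, and its part in these low values and in those of the annotated genes was not tested.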

How the data were processed

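Per the labels, KBM7 chromatin was immunoprecipitated for H3K9me3 and sequenced. Bowtie2, MACS and hg19 are named in the submitters' processing notes, and their versions, read filtering and read extension were not stated there. The authors deposited raw read counts per gene interval, the interval length in kb and a score: the count per kb as a coverage signal, which was not scaled to depth and not corrected for IgG. Counts over all 40237 intervals sum to 78512210 reads and count shared reads repeatedly. The deposited peak list of 121168 autosomal peaks gives start and end only, with no height.

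The overhang was solved so that the median of count over gene density times length plus overhang was 1 in other short intervals. Expected peak overlap was computed exactly, with no draws, over all start positions of the chromosome, with the largest position seen on it taken as its length. Both steps were tested on simulated data. The overhang step had to return a known overhang from Poisson counts only, and draws with a wider spread were held to no limit. Poisson and Clopper-Pearson intervals are at 95%, and a limit for 0 reads uses 3 counts. Named copies are the 10 highest, the highest of each family, the 5 in the widest peaks and the 5 highest outside peaks. Members, lists and rules were chosen with earlier results of these data known; like-length sets, numbered symbols, peak centring, arrays and hosts over 2000 kb were added after the data were seen. Computation used scipy 1.17.1, pandas 2.3.3 and numpy 2.4.6 under Python 3.11.15, with matplotlib 3.10.9 for plots. The IgG library was not analysed here, and with 1 library no test was made. Alternatives changed the overhang, the peak minimum, the placement window, the host minimum and the chromosomes kept.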

Additional observations from a re-analysis of the deposited data

How the results depend on the processing

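No paired analysis was possible because only 1 library was analysed, so no replicate could be left out or blocked. The median corrected score of all members, 37.1, depends on the overhang: it was 126 with none, 67.0 with 0.1 kb, 34.4 with 0.3 kb and 46.0 with 0.197 kb, the overhang from a line of count on length. It was 35.2 without chromosome 8 and 60 to 90 Mb of chromosome 15, 42.8 over members in no other gene interval and 49.3 from pooled reads. The ratio of the highest to the lowest family median, 2.48, was 1.89 without an overhang and 1.96 with 0.1 kb; 7SK was highest and Y_RNA lowest under all 8 alternatives run except the one without an overhang, where SNORD112 was highest. The share of members in peaks, 6.97%, was 4.24% with peaks of 1500 bp or more and 9.57% over members in no other gene interval, where the observed share was 1.38 times the expected one. The median ratio of member to host, 0.903, was 1.62 with an overhang of 0.1 kb and 0.837 with 0.3 kb, when other short intervals had 1.79 and 0.932. The other 26 alternatives of these values and of the share without reads stayed within the 95% interval of the value. These intervals were binomial for shares and over copies for medians. For the ratio of the highest to the lowest family median, the interval covered the spread of the 7SK median only, with that of Y_RNA held fixed. Peak overlap over expectation stayed above 1 for 7SK (1.995 to 3.22), 5S_rRNA (1.39 to 2.37) and U1 (1.71 to 2.03) and below 1 for U6 (0.645 to 0.754) and U4 (0.438 to 0.868) under the 9 alternatives of each. Over copies in no other gene interval it reached 1.12 for Y_RNA, 1.01 for snoU13 and 1.43 for U7. The ratio crossed 1 under some settings for U2 (0.815 to 1.30), SNORD112 (0.458 to 1.68) and U3 (0.827 to 2.39). With few reads in most copies, depth limits single copies more than families.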
